A study of Mus musculus with 4 samples.

Results

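Distal intergenic KAP1 summits are the binding positions that lie far from any coding gene. A member is a replicate 1 summit on chromosomes 1 to 19 with a replicate 2 summit within 200 bp, outside all protein-coding genes of the NCBI RefSeq table of GRCm38 and over 20000 bp from the nearest start or end coordinate of one. This rule gave 1031 members of 7641 shared summits on these chromosomes, or 13.5% (Wilson 95% interval 12.75 to 14.28%). The other 6610 shared summits are the set they are compared with. Of these, 1717 lay within 1000 bp of an end of a coding gene, 3328 in a gene body and 1565 between genes at a shorter distance. Members were chosen by presence in both summit lists, so the pairing and the scores are described without a test.

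KAP1 binding was mapped by ChIP-seq in regulatory T cells from the spleen of C57BL/6 mice, sorted and expanded for 2 weeks in culture. The 2 KAP1 samples were precipitated with the antibody 1Tb-A9, and 2 input samples had none. The input samples were not analysed here. The labels give no genotype, treatment, sex or age, leave unstated if the 2 replicates derive from different animals or cultures, and the summit lists hold no RNA by which the cell type could be checked. Any difference between the replicates may be technical. On chromosomes 1 to 19, replicate 1 had 8778 summits and replicate 2 had 78980. The reads behind either list are unknown, and with them the precision of each list. Each summit carries a score set by the authors' peak calling, a p-value or q-value written as its −log10, which is used only within its own list.

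KAP1, encoded by Trim28, does not recognise a DNA sequence itself and silences the sites to which KRAB zinc finger proteins tether it. It recruits the histone methyltransferase SETDB1 and HP1 proteins and is best known for silencing transposable elements. It has also been found at promoters and enhancers. Intergenic DNA far from coding genes holds many long noncoding RNA genes, many repeats and enhancers that act on genes at a distance.

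Annotated sequence was at hand for the members that fell in the promoter window of a noncoding gene, which spans 250 bases before to 50 bases after an annotated start in RefSeq (GRCm38.p6). There were 18 such members, in the windows of 18 long noncoding RNA genes. The 5 highest-ranking windows are shown because they place a distal summit of both replicates near an annotated start of a named noncoding gene. They are written 5′ to 3′ on the strand of the gene, and the capitals mark the replicate 1 summit with up to 10 bases on each side.
Snhg17, chr2:158361460-158361759, minus strand: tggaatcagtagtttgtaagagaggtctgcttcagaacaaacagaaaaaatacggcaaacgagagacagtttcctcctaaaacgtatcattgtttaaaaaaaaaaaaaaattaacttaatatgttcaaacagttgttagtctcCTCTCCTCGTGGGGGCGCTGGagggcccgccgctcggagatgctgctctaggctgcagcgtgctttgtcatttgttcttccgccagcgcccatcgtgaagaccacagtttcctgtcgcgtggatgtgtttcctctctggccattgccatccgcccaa
Gm40441, chr12:72844379-72844678, minus strand: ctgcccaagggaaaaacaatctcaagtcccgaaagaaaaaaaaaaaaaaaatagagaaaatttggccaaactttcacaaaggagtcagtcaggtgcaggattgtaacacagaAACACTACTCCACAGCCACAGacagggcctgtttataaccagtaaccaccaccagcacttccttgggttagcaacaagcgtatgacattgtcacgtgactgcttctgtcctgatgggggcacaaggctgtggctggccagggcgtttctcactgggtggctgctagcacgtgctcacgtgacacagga
Gm36077, chr1:151083871-151084170, minus strand: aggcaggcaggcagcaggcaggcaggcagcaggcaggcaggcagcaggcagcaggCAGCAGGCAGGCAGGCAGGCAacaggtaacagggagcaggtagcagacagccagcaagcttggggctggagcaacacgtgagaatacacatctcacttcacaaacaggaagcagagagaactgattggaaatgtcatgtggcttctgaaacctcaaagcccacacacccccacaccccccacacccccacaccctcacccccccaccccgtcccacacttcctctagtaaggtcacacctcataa
Gm11963, chr11:5485630-5485929, plus strand: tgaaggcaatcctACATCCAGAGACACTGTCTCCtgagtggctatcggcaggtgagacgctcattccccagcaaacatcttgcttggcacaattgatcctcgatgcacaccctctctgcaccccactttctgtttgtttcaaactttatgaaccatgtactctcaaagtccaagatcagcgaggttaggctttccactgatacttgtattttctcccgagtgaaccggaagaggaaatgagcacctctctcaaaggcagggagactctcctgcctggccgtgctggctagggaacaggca
Morrbid, chr2:128429302-128429601, minus strand: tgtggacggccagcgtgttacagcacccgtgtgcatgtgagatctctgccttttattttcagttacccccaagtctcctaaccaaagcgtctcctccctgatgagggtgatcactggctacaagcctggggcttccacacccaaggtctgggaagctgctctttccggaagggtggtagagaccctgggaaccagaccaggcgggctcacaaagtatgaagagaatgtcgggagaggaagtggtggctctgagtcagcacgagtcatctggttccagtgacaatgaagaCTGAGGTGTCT

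Snhg17, a host gene of small nucleolar RNAs, had its summit on the same base in both replicates, 97 bp before the start shown, scoring 46.96 in replicate 1 and 70.6 in replicate 2. The Gm40441 summit lay 128 bp before the start, with scores of 28.9 and 68.95. The Gm11963 summit lay 227 bp before the start (28.1 and 38.1). Its nearest coding gene was Xbp1, a transcription factor gene of the unfolded protein response, at 34988 bp. In Morrbid, a long noncoding RNA known in mouse myeloid cells as a regulator of the neighbouring death gene Bcl2l11, the summit lay 49 bp after the start (22.5 and 46.5). The Gm36077 summit lay 185 bp before the start (28.3 and 36.04), within a run of short tandem repeats. Over all 18 windows the summit was between 4 and 227 bp from the start, before it in 15 of 18 cases. A window holds 250 bases before the start and 50 after it. It thus bounds the distance and puts most positions before the start, so nothing is read from either. The windows differ in CG pairs, with 15 in Snhg17, 6 in Gm40441 and 2 in Gm36077. The median GC content of the 18 windows was 49.7%, against 48.3% over 11311 noncoding and 53.0% over all 31396 promoter windows of the same length on the chromosomes used for sequence.

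Exact matches to 12 short motifs were looked for on both strands of the 18 windows. TGTGGTT, the core bound by Runx factors, was in 6 of 18 windows (33.3%), against 5.32% of all promoter windows and 6.30% of noncoding ones. TGANTCA, which covers the AP-1 site TGA(C/G)TCA but takes any middle base, was in 5 (27.8%, against 7.84% of all). Its middle base was G in Morrbid, C in Mirt1 and A or T in Gm41309, Gm36897 and LOC115487176. CAGGAAG, a core of ETS factors, was in 7 (38.9%, against 13.4%). CCGGAAG, another ETS core, was in 2 windows (11.1%), against 2827 of all 31396 promoter windows and 3.91% of noncoding ones. Its share was closer to that of all promoter windows than to that of noncoding ones. ACTACAA, part of the ZNF143 site, was also in 2 (11.1%, against 3.32% of all). The NF-kappaB motif, AGGTGGC (CTCF core), AAGATGG (YY1), CCAATCA (NF-Y) and ATCAAAG (TCF7 and LEF1) were in 1 window each (5.56%), against 0.417%, 6.18%, 6.38%, 7.69% and 3.76% of all windows. GTTCNANNC, the B box of tRNA genes, and TTCNNNGAA, bound by STAT factors, were in none, against 9.29% and 8.35%. No matches of different motifs overlapped. With 18 windows these shares are a description, and a match is not a site of binding. TGTGGTT was picked from the 12 motifs for display after its count was seen, and others were also more frequent here than in promoters at large. None of the 5 windows shown above holds it, and the 6 members whose windows do had ranks from 239 to 914. These 6 stretches are shown with the match or its reverse complement in capitals.
Gm15411, chr5:149015964-149016078, minus strand: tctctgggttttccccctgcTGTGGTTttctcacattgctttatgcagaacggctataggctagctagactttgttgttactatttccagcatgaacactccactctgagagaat
Gm35891, chr3:51128976-51129026, minus strand: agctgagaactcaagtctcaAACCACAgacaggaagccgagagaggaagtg
LOC115487176, chr9:61013256-61013350, plus strand: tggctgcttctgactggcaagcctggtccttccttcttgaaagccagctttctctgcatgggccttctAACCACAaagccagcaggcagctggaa
Gm13982, chr2:117417648-117417766, minus strand: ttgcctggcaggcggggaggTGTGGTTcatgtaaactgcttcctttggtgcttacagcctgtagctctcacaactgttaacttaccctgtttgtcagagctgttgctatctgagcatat
Gm35813, chr2:79231241-79231313, plus strand: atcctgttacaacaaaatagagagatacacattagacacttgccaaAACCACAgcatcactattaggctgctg
4930578M01Rik, chr15:98985860-98985924, plus strand: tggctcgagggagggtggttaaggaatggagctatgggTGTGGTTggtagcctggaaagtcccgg

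The Gm35891 match was centred 7 bp from the summit, and the others lay between 21 and 90 bp from it. The nearest coding genes of these members include Rasgrp1 for Gm13982, at 74776 bp, and Itga4 for Gm35813, at 24165 bp. Rasgrp1 encodes an activator of Ras downstream of the T cell receptor, and Itga4 encodes an integrin chain of lymphocyte homing. Their scores were low in replicate 1, at 4.61 and 5.10, and 11.9 and 8.29 in replicate 2. Near starts of noncoding genes in general, 24 of 992 members lay within 250 bp (2.42%, Wilson 1.63 to 3.57%), against 99 of 6454 other shared summits (1.53%, 1.26 to 1.86%). These counts leave out the 39 members and 156 other summits of chromosome 18, for which no starts were used.

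How the density of summits changed with distance from coding genes was computed from the length of the stretches between genes. Shared summits became sparser at each step away from genes. At 20 to 50 kb there were 503 members, or 2.35 per Mb of that territory (exact Poisson 95% interval 2.15 to 2.57). At 50 to 100 kb there were 1.43 per Mb (1.26 to 1.61, 262 members), at 100 to 200 kb 0.807 (0.688 to 0.941, 162) and at 200 to 500 kb 0.361 (0.292 to 0.441, 95). Beyond 500 kb, 9 members lay in 215.5 Mb, or 0.0418 per Mb (0.0191 to 0.0793). None of these intervals overlapped its neighbour. These intervals cover counting error only, and summits are not independent replicates.

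The full list of replicate 2 fell less steeply over the same steps. It had 29.1 summits per Mb at 20 to 50 kb, then 25.7, 22.95, 19.9 and 17.2 per Mb beyond 500 kb. The share of replicate 2 summits that were members therefore fell, with 8.10% at 20 to 50 kb, 5.57%, 3.52%, 1.81% and 0.243% beyond 500 kb. The full list of replicate 1, most of which is shared, had 2.73 per Mb at 20 to 50 kb and 0.0510 beyond 500 kb. Over the whole territory more than 20 kb from coding genes, 1077 Mb or 44.3% of the length spanned by coding genes and the stretches between them, there were 0.957 members per Mb. Shared summits were at 6.79 per Mb between genes within 20 kb of one and at 4.17 per Mb inside genes. Replicate 2 had 22.7, 42.1 and 39.6 summits per Mb in these territories, and replicate 1 had 1.11, 7.80 and 4.78. Distal summits made up 13.6% of replicate 1 and 31.0% of replicate 2.

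**Figure D1:**
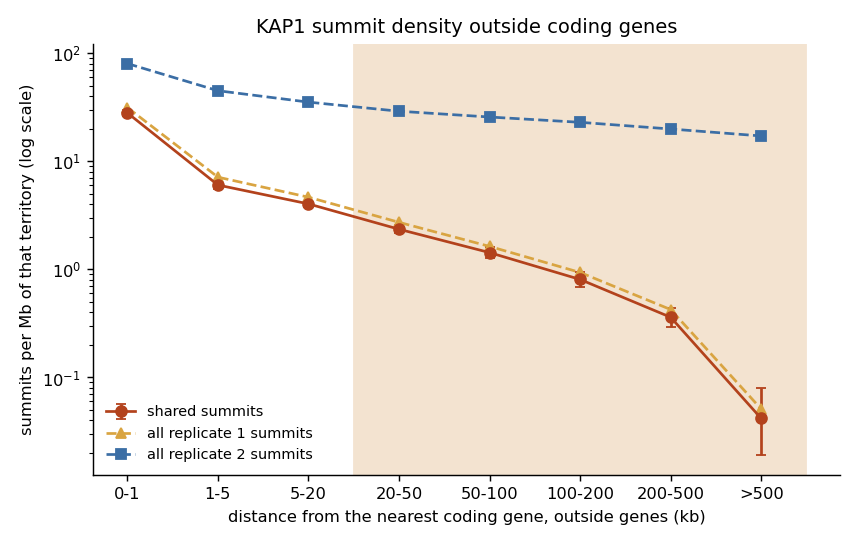
KAP1 summits per Mb (log scale) outside coding genes, by distance from the nearest coding gene in kb; circles are shared summits with exact Poisson 95% intervals, triangles all replicate 1 summits and squares all replicate 2 summits. In the shaded distal range, shared summits are at 2.35 per Mb at 20 to 50 kb and 0.0418 beyond 500 kb, and replicate 2 summits at 29.1 and 17.2.

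Of 1193 distal replicate 1 summits, 1031 were shared (86.4%), where 87% of all replicate 1 summits were. The rule fixed this pairing, so nothing is read from the count. The 162 distal replicate 1 summits without a partner had a median score of 4.61 and a highest of 10.6, and 31 of them had a replicate 2 summit within 500 bp. In the top 10% of the replicate 1 list, all 110 distal summits and all 770 others were shared. From the other side, 23456 distal replicate 2 summits had no partner. Their median score was 8.31 (quartiles 6.51 and 10.6), against 11.6 for the replicate 2 summits with one.

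Members had scores close to those of the other shared summits. In replicate 1 the members ranged from 1.48 to 103.4 with a median of 7.64 (95% interval of the median 7.25 to 8.34), against 8.34 for the others (8.09 to 8.34), which reached 146.6. In replicate 2 they ranged from 2.66 to 126.1 with a median of 11.6 (10.8 to 12.5), against 12.4 (12.2 to 12.8) for the others, which reached 153.6. The medians were lower in members in both replicates, with intervals that overlap in each. In the top 10% of both lists were 107 members (10.4%, Wilson 8.66 to 12.4%), against 11.4% of all shared summits, and in the top 25% of both 258 (25.02%, 22.5 to 27.8%), against 28.2%. Replicate 1 scores were coarse, with 227 distinct values among the members, and 130 members had the same score of 5.10. Paired summits of members were a median of 6 bp apart, as were those of the others, and 107 pairs fell on the same base (10.4%, against 11.6% of the others). Within 10 kb of the summit, 363 members had no other replicate 2 summit (35.2%), against 1845 of the others (27.9%). Across members, the ranks of both scores had a Spearman's rho of 0.776, and 0.766 across the others. These points come from the same 2 libraries and are not independent.

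**Figure D2:**
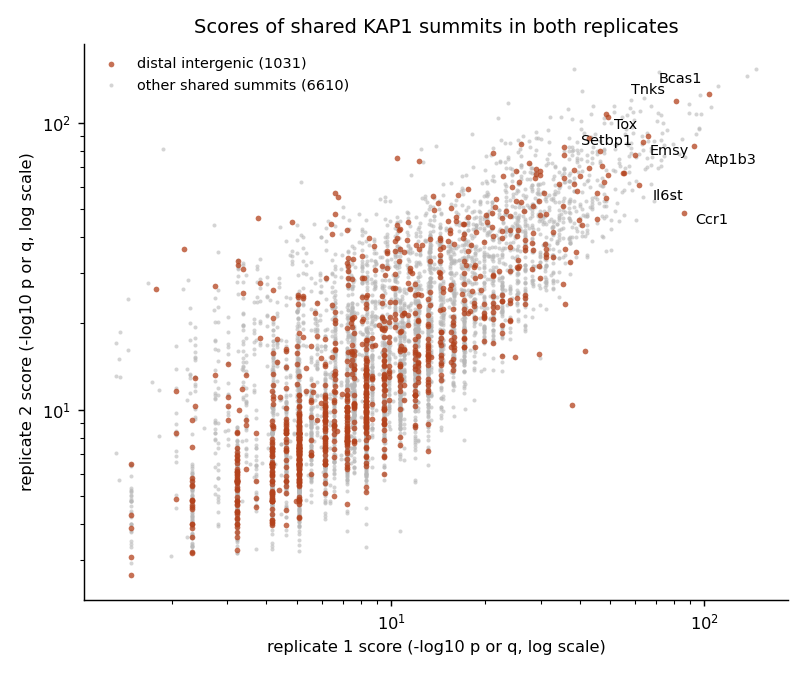
Score of each shared summit in replicate 1 (horizontal) and replicate 2 (vertical), each a p-value or q-value as −log10 on log axes, with distal members in red and other shared summits in grey. Members lie within the range of the others, the 8 members with the highest mean rank carry the name of their nearest coding gene, and the vertical stripes are replicate 1 scores that many summits share.

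The summits nearest to the thresholds had a wide range of scores. Just over 20000 bp from a coding gene were the members near Ptpn1 (20097 bp, scores 17.03 and 18.9), Rai1 (20128 bp, 11.02 and 12.2), Iqschfp (20136 bp, 3.69 and 8.315) and Ap1m1 (20170 bp, 5.21 and 24.9). Just below it were shared summits near Igsf5 (19995 bp, 19.8 and 26.4), Olfr282 (19950 bp, 17.2 and 39.3), Dhx40 (19916 bp, 8.34 and 9.86) and Plpp7 (19841 bp, 6.59 and 6.603). The widest pairs of members were 168 bp apart near 1700021F07Rik and 145 bp apart near Gm5148. The nearest misses were distal replicate 1 summits 207 bp from a replicate 2 summit near Cblb (score 5.10) and 217 bp near Runx1 (6.59).

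The 15 members with the highest mean percentile rank of both scores are given with the coding genes on their 2 sides, for which no link to the summit is claimed. The highest lay at position 170319438 of chromosome 2 (mm10), 24535 bp from Bcas1 and 167761 bp from Zfp217, scoring 103.4 in replicate 1 and 126.1 in replicate 2. It was inside the long noncoding RNA gene Gm34542, 213 bp from its start coordinate. The second, at position 35123405 of chromosome 8, lay between Tnks (157715 bp), which encodes a poly-ADP-ribose polymerase, and Ppp1r3b (252289 bp), with scores of 81.3 and 119.1. The third, at position 96399799 of chromosome 9, lay between Atp1b3 (35368 bp), a sodium pump subunit gene, and Rnf7 (71138 bp), 185 bp inside the end of the noncoding gene Gm40550 (92.5 and 82.8).

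The next 5 members followed in rank. A member at position 7455491 of chromosome 4 lay between Tox (463934 bp), a transcription factor gene of T cell development and exhaustion, and Car8 (686002 bp), with scores of 65.9 and 89.9. A member at position 79297766 of chromosome 18 lay between Setbp1 (187322 bp) and Gm36718 (721528 bp), with scores of 63.7 and 85.9. At position 123936812 of chromosome 9, a member lay between the chemokine receptor genes Ccr1 (25314 bp) and Xcr1 (74783 bp), with scores of 86.04 and 48.4. A member at position 98565097 of chromosome 7 lay between Emsy (22033 bp) and Lrrc32 (63266 bp), which encodes the TGF-beta docking receptor GARP, with scores of 60.1 and 77.2. One at position 112427613 of chromosome 13 lay between Il6st (36457 bp), the gene of the shared interleukin-6 receptor chain gp130, and Ankrd55 (43608 bp), with scores of 61.6 and 60.6.

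Of the remaining 7, the Phlda1 member lay between Phlda1 (70191 bp) and Krr1 (393855 bp), with scores of 55.5 and 67.04. The next lay between Cdkn2aipnl (35548 bp) and Jade2 (73072 bp), with the same base in both replicates (55.2 and 66.6). The Macir member (63505 bp) had Gm7135 on its other side at 101348 bp (49.3 and 104.6). A member at position 5414712 of chromosome 15 lay between Ptger4 (170525 bp), a prostaglandin E2 receptor gene, and Dab2 (885076 bp), with scores of 48.6 and 107.1. The member at position 25438376 of chromosome 12 lay between Id2 (342284 bp), which encodes an inhibitor of E protein transcription factors, and Rnf144a (868418 bp), with scores of 49.4 and 65.8. The last 2 lay between Slc38a1 (27797 bp), a glutamine transporter gene, and Gm41408 (80375 bp), and between Dusp6 (149619 bp), an ERK phosphatase gene, and Csl (340597 bp). Their scores were 46.4 and 79.5 near Slc38a1, and 47.8 and 62.3 near Dusp6.

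The members were unevenly spread over the stretches between coding genes. Of 5315 such gaps longer than 40 kb, which alone can hold a member, 603 held at least 1, and the background share is thus 11.3%. A single member was found in 376 gaps, and 24 gaps with 5 or more held 157 members. Replicate 2 had distal summits in 3345 gaps (62.9%). Gaps of 40 to 100 kb had 3.48 members per Mb of distal territory (3.04 to 3.97) and gaps over 1 Mb had 0.190 (0.152 to 0.234), with 2.52, 1.32 and 0.714 in the length classes between. Replicate 2 had 32.2 and 18.9 distal summits per Mb in the shortest and the longest gaps. Of 258 gaps over 1 Mb, 219 held no member. The longest of these, between the protocadherin genes Pcdh20 and Pcdh9, had 4542 kb, 0 distal replicate 1 summits and 64 of replicate 2.

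The gap with the most members lay between Foxo1, a transcription factor gene of naive and regulatory T cells, and Cog6, a Golgi complex gene. It held 13 members over 513.8 kb, all 13 of its distal replicate 1 summits, and 39 of replicate 2. The member nearest to Foxo1 was 61451 bp from it, and the highest-ranking one lay 205127 bp away, at position 52555236 of chromosome 3 (scores 19.8 and 17.4). Scores in this gap were mostly low, with a median of 4.61 in replicate 1 and 6.42 in replicate 2. Its 13 members came to 22.0 per Mb, against 0.957 over all distal territory. The gap was picked for its count, so this difference is not a separate result. Replicate 2 had 65.9 distal summits per Mb in it, against 22.7 over all distal territory. The gap between Chd2 and Fam174b, with 6 members, was denser at 37.8 members per Mb.

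The gap between Irf2bp2, a corepressor gene, and Tomm20, a mitochondrial import receptor gene, held 9 members in 336.7 kb. The highest-ranking lay at position 126874994 of chromosome 8, 55670 bp from Tomm20 (15.7 and 19.8). The gap from Myc, the growth-regulating transcription factor gene, to Gsdmc held 8. Of these, 3 lay in the noncoding gene Pvt1 at 48782, 115041 and 174177 bp from Myc, with scores of 9.50, 8.34 and 15.6 in replicate 1 and 13.0, 13.4 and 14.7 in replicate 2. Another 4 lay 728156 to 760784 bp from Myc, of which a close pair had replicate 1 scores of 12.05 and 8.81 and replicate 2 scores of 37.5 and 37.3. The eighth, 769365 bp from Gsdmc, was the member farthest from any coding gene. The 5 farthest members were all in this gap.

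The gap between Id2 and Rnf144a held 8 members, among them the one described above and one 93080 bp from Id2 (17.1 and 32.9). The gap between Gadd45g, a stress-response gene, and Diras2 also held 8, led by a member 266675 bp from Gadd45g (25.3 and 31.5). Its other 7 had replicate 1 scores from 3.21 to 8.34.

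**Figure D3:**
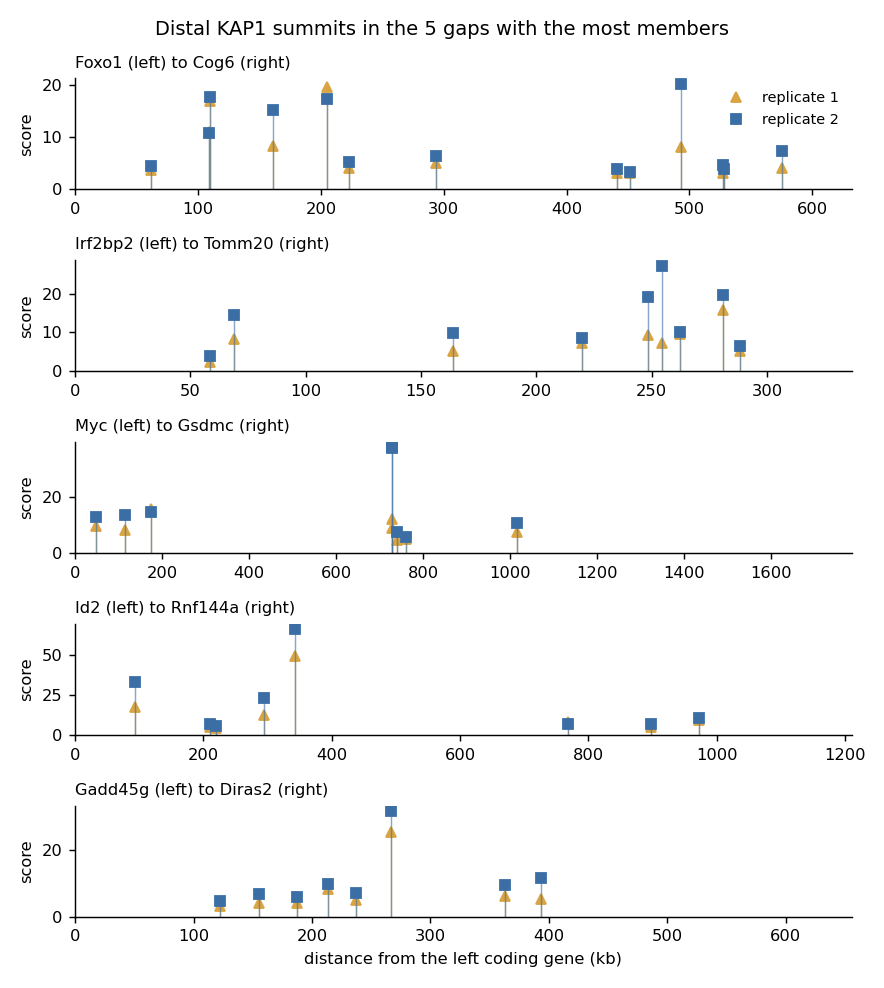
Position (horizontal, distance from the left coding gene in kb) and score (vertical, a p-value or q-value as −log10) of the members in the 5 gaps that held the most, with triangles for replicate 1 and squares for replicate 2. The Foxo1 to Cog6 gap holds 13 members, and the 4 members 728 to 761 kb from Myc stand apart from the 3 in Pvt1.

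On a shorter scale most members stood alone. Joined by gaps of at most 10 kb, the 1031 members formed 908 groups, of which 805 were single, 87 were pairs and 16 had 3 or 4 members. Another shared summit of any location lay within 10 kb of 248 members (24.1%, Wilson 21.5 to 26.8%), against 2055 of the others (31.1%, 30.0 to 32.2%). Shared summits were sparser in distal territory, at 0.957 per Mb against 6.79 between genes within 20 kb and 4.17 inside genes. The shares of 24.1% and 31.1% were not adjusted for this density. The 4 groups of 4 members were ordered by the sum of their members' percentile ranks. The first spanned 7765 bp, 25314 to 33079 bp from Ccr1 on the side of Xcr1, another chemokine receptor gene. In order towards Ccr1 they scored 41.5, 37.7, 17.3 and 86.04 in replicate 1, and 16.1, 10.4, 32.04 and 48.4 in replicate 2. Both libraries gave the member nearest to Ccr1 the highest score of the group and differed in the order of the other 3. The other groups of 4 lay 67256 to 76025 bp from the chromatin remodeller gene Chd2, 232078 to 245024 bp from the ribosomal protein gene Rplp1, and between Naif1 and Fam102a. A group of 3 near Snx6 had scores from 23.3 to 35.4 in replicate 1 and from 27.5 to 49.3 in replicate 2.

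Members were more often at noncoding genes than the other shared summits were. In a noncoding gene or within 1000 bp of one were 318 members (30.8%, Wilson 28.1 to 33.7%), where the share among all shared summits was 16.6%. Among the other shared summits it was 14.4% (13.5 to 15.2%), and among the distal replicate 2 summits without a partner 17.7% (17.2 to 18.2%). The rule keeps members out of coding genes, while 4106 of the other shared summits lay inside them. The shares of members and others were not adjusted for this. Noncoding genes with 1000 bp on each side cover 16.1% of the distal territory. Members lay there at 1.84 per Mb (1.64 to 2.05), against 0.789 per Mb (0.732 to 0.849) in the rest of it. Within 1000 bp of an end of a noncoding gene were 115 members (11.2%, 9.37 to 13.2%), against 8.91% of all shared summits, or 3.07 members per Mb (2.54 to 3.69) of such distal sequence. By type, 296 members were at long noncoding RNA genes and 12 at pseudogenes.

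Of the 8 highest-ranking members at noncoding genes, Gm34542, Gm40550, Gm36723 near Id2 and Snhg17 are described above, as is the member in the Gm46496 pseudogene, which is the one near Ptger4. Gm33905, between Ankrd55 and Il6st, held a member with scores of 40.003 and 65.2. Platr22 had a member 967 bp outside the gene (39.9 and 45.7), and Gm29243, between Saraf and Dusp4, one at 711 bp (35.7 and 64.2). Chosen after their values were seen, 2 members each lay in the antigen receptor loci Tcra, Tcrb, Tcrg and Igk, which the gene table does not list as protein-coding. Their scores ran from 2.36 to 12.2 in replicate 1 and from 4.70 to 18.1 in replicate 2. Morrbid held or bordered 4 members. One member lay 31 bp from the tRNA gene n-TEttc7, scoring 18.4 in replicate 1 and 23.6 in replicate 2, on the same base in both.

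Which coding genes lie nearest to members was counted over the 8116 coding genes that border a gap over 40 kb. Of these, 694 were the nearest coding gene of at least 1 member, so the background share is 8.55%. With all distal replicate 2 summits this share was 55.9%. The shares in the 3 T cell lists were higher than over all genes. Of 19 regulatory T cell signature genes beside such a gap, 11 were nearest to a member (57.9%, Wilson 36.3 to 76.9%), as were 10 of 18 conventional T cell genes (55.6%, 33.7 to 75.4%) and 11 of 17 T cell identity genes (64.7%, 41.3 to 82.7%). Of 19 neuronal genes beside such a gap, none was (0%, up to 16.8%), and this interval includes the background share of 8.55%. The regulatory T cell genes were Ctla4, Tigit, Icos, Il10, Nrp1, Rgs1, Prdm1, Gata3, Maf, Gzmb and Bcl2l11, while Ikzf2, Lrrc32, Batf and Rora were among the 8 that were not. The conventional T cell genes were Satb1, Tcf7, Lef1, Ccr7, Id3, Dapl1, Il2, Il21, Bcl6 and S1pr1. Those of T cell identity were Cd2, Cd5, Cd28, Runx3, Ets1, Bcl11b, Gata3, Thy1, Tox, Skap1 and Prkcq, so that Gata3 counts in 2 lists. These lists were written with earlier results of these data known, and no test was made on them.

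The counts were also set against length. The distal sequence nearest to the 53 genes of the 3 T cell lists came to 9.86 Mb and held 53 members, or 5.38 per Mb (4.03 to 7.03). The distal sequence nearest to the neuronal genes came to 9.14 Mb and held 0 members, which allows up to 0.403 per Mb. This limit is above the 0.190 members per Mb of all gaps over 1 Mb, and the lists were not matched for gap length. In the neuronal sequence lay 171 distal replicate 2 summits (18.7 per Mb, against 32.8 for the T cell lists). By that full replicate 2 list, 18 of the 19 neuronal genes were nearest to a distal summit. The shorter lists gave 1 of 5 KAP1 silencing partners (Atf7ip), 1 of 4 myeloid genes (Cebpb), 0 of 3 B cell genes and 0 of 2 erythroid genes, too few to read against the background. Counting both coding genes that flank the gap of a member, a choice made after seeing the data, gave 12, 13 and 15 genes of the 3 T cell lists and 2 neuronal genes, against 14.1% of all such genes. With replicate 2 reduced to its strongest summits the 3 lists had 4, 6 and 6 genes, and the neuronal list 0, of 332 genes in all.

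**Figure D4:**
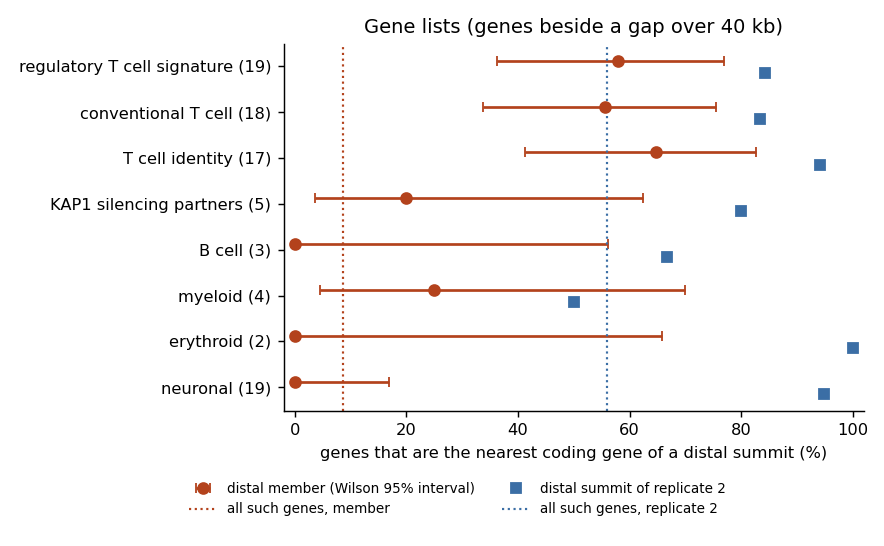
Share of the genes of each list that are the nearest coding gene of a distal summit, among genes beside a gap over 40 kb (number in brackets); circles are members with Wilson 95% intervals, squares all distal replicate 2 summits, and dotted lines the shares over all such genes, 8.55% and 55.9%. The 3 T cell lists lie between 55.6 and 64.7% and the neuronal list at 0%, while by replicate 2 the neuronal list is at 94.7%.

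The 10 highest-ranking members nearest to genes of the T cell lists are given here. After Tox came Dapl1, whose member lay at 46115 bp (48.6 and 54.8), and Ccr7, the lymph node homing receptor gene, at 25157 bp (37.4 and 32.8). A member at position 37173641 of chromosome 3 lay almost midway between Il2 (47687 bp) and Il21 (49118 bp), which encode T cell cytokines, with scores of 29.6 and 31.6. Bcl6, the repressor gene of follicular helper T cells, had members at 198620 bp (22.5 and 39.8) and 162664 bp (21.01 and 48.4). Ets1, a lymphoid transcription factor gene, had 7 members in all, the highest at 170783 bp (20.2 and 45.1). S1pr1, the egress receptor gene, had one at 85516 bp (21.1 and 22.8), and Cd5, a negative regulator of T cell receptor signalling, one at 24906 bp (19.8 and 21.8).

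Ctla4, which encodes an inhibitory receptor of regulatory T cells, had its highest distal member at position 60875127 of chromosome 1, 33898 bp away and 101768 bp from Cd28, the costimulatory receptor gene. Its scores were 19.8 in replicate 1 and 21.04 in replicate 2. The same gap held 2 weaker members, at 40491 bp from Ctla4 (5.10 and 6.37) and 20649 bp from Cd28 (3.21 and 5.77). Beyond Icos, a costimulatory receptor gene of the same cluster, 2 members lay at 45884 bp (17.6 and 21.7) and 50002 bp (9.37 and 19.3).

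The chromosomes differed in how many members they held. Per Mb of distal territory, chromosome 9 had 1.73 members (1.37 to 2.16) and chromosome 10 had 1.46 (1.16 to 1.82), while chromosome 14 had 0.590 (0.413 to 0.817) and chromosome 4 had 0.633 (0.462 to 0.847). The other 15 chromosomes lay between 0.707 and 1.19. In replicate 2, distal summits were at 25.2, 27.7, 18.2 and 20.4 per Mb on chromosomes 9, 10, 14 and 4, and between 17.5 and 26.5 on the others. As a share of the shared summits of a chromosome, members made up from 6.61% on chromosome 11 to 22.9% on chromosome 12.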

How the data were processed

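KAP1 ChIP-seq summits of regulatory T cells were analysed from 2 deposited summit lists. Bowtie2 2.2.9, Picard 2.1.1, MACS2 2.2.1 and mm10 are named in the submitters' processing notes, without parameters, and the library protocol in the labels selected products of 150 to 400 bp. The authors deposited 1 value per summit, a p-value or q-value on the −log10 scale, and which of these it is was not given in the sources used here. A deeper library or a looser threshold gives a longer list, and the lists differ in length, so scores were compared only within a list. No file gives read counts, so depth is unknown.

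Each replicate 1 summit was paired with a replicate 2 summit within 200 bp. Positions were set against 20665 coding and 26377 noncoding genes of the RefSeq table (GRCm38.p6), which holds no strand or exons, with Python 3.11.15, pandas 2.3.3, numpy 2.4.6, scipy 1.17.1 and matplotlib 3.10.9. Intervals are Wilson for shares, exact Poisson for densities and order statistics for medians, all at 95%, and cover counting error only. Both libraries belong to 1 group, which allows no test between samples. The pairing and territory steps were tested on simulated data.

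The members, gene lists and motifs were chosen with earlier results of these data known. Named by rule were the 15 members with the highest mean percentile rank, the 5 farthest from coding genes, the 5 largest groups, the 5 fullest gaps, up to 10 members nearest to T cell list genes, 8 at noncoding genes and those at the thresholds. The promoter windows, the antigen receptor loci, Morrbid, the tRNA gene, Icos and the longest gap without a member were chosen after their values were seen. The inputs and the sequence around summits outside promoter windows were not analysed here.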

Additional observations from a re-analysis of the deposited data

Results flagged for a closer look

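Distal shared summits were also present, but sparser, on a chromosome outside the rule. Chromosome X held 9 shared summits over 20000 bp from coding genes, or 0.0901 per Mb over 99.85 Mb (exact Poisson 95% interval 0.0412 to 0.171), against 0.957 per Mb on chromosomes 1 to 19. Replicate 2 had 145 distal summits there, or 1.45 per Mb, against 22.7. The nearest coding genes of the 9 were Bcor, Gjb1, Lpar4, Hmgb3, Rbbp7, Dach2, Rps6ka3 and, for 2 summits, Tmsb4x. The highest scores were 14.4 in replicate 1 and 28.9 in replicate 2. The labels do not give the sex of the mice, and the cause of the lower density was not tested.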

How the results depend on the processing

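The 2 lists differ in length and their depth is unknown, and no input list, strand, exon or repeat annotation was used, so the counts hold for these lists and this gene table. No paired analysis was possible because the inputs have no list here and no result comes from a test. The motif window of 50 bp was not run, as no genome was given. Of the alternative values, 46 stayed within 1.5 times of the main count or inside the 95% interval of the main share, density or median. The other 38 did not and are given here, and the cause was not tested unless the setting itself fixes it. The main values were 1031 members, 13.5% of shared summits, 86.4% of distal replicate 1 summits shared, 0.957 members per Mb, medians of 7.64 and 11.6, 21.9% of members with a neighbouring member within 10 kb and 30.8% at noncoding genes.

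Pairing within 50 bp gave 79.1% shared, 0.877 per Mb and 19.3% with a neighbour, and 500 bp gave 89.0% shared and 24.9% with a neighbour. A distance over 10000 bp gave a distal share of 20.05% and 1.27 per Mb, while its 1532 members stayed within 1.5 times of the main count. One over 50000 bp gave 528 members, 6.91% and 0.612 per Mb. Genes of every type as limits gave 332 members, 4.345%, 0.504 per Mb, 15.1% with a neighbour and, by construction, 0% at noncoding genes. Scores at or above both list medians gave 544 members, 90.5% shared, 0.505 per Mb, medians of 11.9 and 19.1 and 16.7% with a neighbour. Replicate 2 reduced to as many summits as replicate 1 gave 403 members, 33.8% shared, 0.374 per Mb, medians of 14.35 and 26.0 and 13.15% with a neighbour. Adding chromosome X gave 0.884 per Mb, and merging members within 1000 bp gave 89.1% shared and 17.8% with a neighbour.

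With either replicate left out, the ranges were 1193 to 24488 summits, a distal share of 13.6 to 31.0%, 1.11 to 22.7 per Mb, 31.5 to 39.8% with a neighbour and 18.25 to 31.6% at noncoding genes. The median was 7.25 in replicate 1 alone and 8.315 in replicate 2 alone. The 1193 summits, 13.6%, 31.6% and the median of 7.25, all from replicate 1 alone, stayed within the limits given above. The shared share has no value with either replicate left out.

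Counts for the gene lists under these settings were chosen after seeing the data. With replicate 2 alone the regulatory, conventional and identity lists had 16, 15 and 16 genes, the neuronal list 18 and all coding genes 4540. Over 50000 bp the 3 T cell lists had 5, 4 and 5 of 328 genes. With genes of every type they had 5, 5 and 2 of 266. Scores at or above both list medians left them 5, 8 and 8 of 422. Counting flanking genes gave 2 neuronal genes.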
